A study of Homo sapiens with 22 samples.

Results

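The chemokines and chemokine receptors on the HG-U133A array were followed in 6 human B-cell lymphoma lines after combined inhibition of DNA methyltransferases and histone deacetylases. Members were all probe sets with 1 gene symbol in the platform annotation whose symbol was that of a numbered CCL, CXCL, XCL or CX3CL ligand, a numbered CCR, CXCR, XCR or CX3CR receptor, or an atypical receptor (ACKR). This gave 70 probe sets of 53 genes, 42 probe sets of ligands and 28 of receptors, out of 22215 probe sets without the array's own controls. CCR7, CCL5, CXCL10 and CXCL11, with 6 probe sets, were set apart from the other 64. The treated cells were of 3 Burkitt lymphoma lines (Daudi, Namalwa, Raji) and of 3 lines (SU-DHL4, SU-DHL6, HT) from diffuse large B-cell lymphoma, DLBCL. They had received the methyltransferase inhibitor 5-aza-2'-deoxycytidine (5-aza-dC) for 6 days, with drug and medium renewed on days 2 and 5, and the deacetylase inhibitor trichostatin A (TSA) at 625 nM for the last 24 h. The labels disagree on the 5-aza-dC dose, which is 5 µM in the sample titles and 3 µM in the protocol and design text. The untreated cells were the same 6 lines. Each line and treatment had 2 arrays, except HT with 1 of each, and nothing in the labels says that duplicates were separate cultures, so p-values within a line measure only the spread between arrays, which may be technical. All are established tumour lines, no normal B cells were included, and neither drug was given alone. The design text says that array data of the treated Burkitt lines had been published earlier, so in those lines an array batch, if there was one, and treatment cannot be told apart.

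Chemokines are small secreted proteins that guide leukocyte movement, and most of their receptors signal through Gi proteins. Homeostatic pairs such as CXCL13 with CXCR5, CXCL12 with CXCR4, and CCL19 or CCL21 with CCR7 position B cells within lymphoid organs. Inflammatory chemokines such as CCL5, CXCL9, CXCL10 and CXCL11 are made after interferon or NF-kB signalling and draw T cells and other leukocytes to the site.

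The promoters of 5 ligands are shown because these ligands had the largest differences among members with a RefSeq promoter here, or, for CXCL8, differed between Burkitt lines. The sequences are the 250 bases before the gene's start, 5′ to 3′ on the gene's strand, from RefSeq on GRCh38.p14. Capitals mark matches, on either strand, to GAAA, any 2 bases and GAAA, the core of the interferon-stimulated response element, or to GGGA, any 4 bases and CC, an NF-kB (kB) motif.
CXCL9: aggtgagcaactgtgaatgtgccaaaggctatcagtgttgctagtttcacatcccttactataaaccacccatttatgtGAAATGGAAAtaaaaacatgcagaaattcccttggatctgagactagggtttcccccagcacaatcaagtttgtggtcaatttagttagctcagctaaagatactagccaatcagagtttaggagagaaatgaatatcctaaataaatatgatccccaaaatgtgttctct
CXCL10: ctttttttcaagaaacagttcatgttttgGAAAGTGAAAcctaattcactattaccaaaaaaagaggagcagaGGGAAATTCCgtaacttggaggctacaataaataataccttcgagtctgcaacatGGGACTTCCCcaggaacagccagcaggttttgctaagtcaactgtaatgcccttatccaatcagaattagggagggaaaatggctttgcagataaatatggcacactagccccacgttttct
CXCL11: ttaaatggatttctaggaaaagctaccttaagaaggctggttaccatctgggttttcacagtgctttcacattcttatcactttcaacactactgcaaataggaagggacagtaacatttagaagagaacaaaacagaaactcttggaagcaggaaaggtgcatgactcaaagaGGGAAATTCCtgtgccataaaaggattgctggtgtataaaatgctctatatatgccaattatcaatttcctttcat
CCL20: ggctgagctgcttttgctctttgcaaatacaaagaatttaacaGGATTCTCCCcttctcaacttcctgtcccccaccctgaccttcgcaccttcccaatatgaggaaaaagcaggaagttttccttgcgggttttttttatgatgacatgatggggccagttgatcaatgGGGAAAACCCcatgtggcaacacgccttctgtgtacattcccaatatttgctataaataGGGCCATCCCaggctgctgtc
CXCL8: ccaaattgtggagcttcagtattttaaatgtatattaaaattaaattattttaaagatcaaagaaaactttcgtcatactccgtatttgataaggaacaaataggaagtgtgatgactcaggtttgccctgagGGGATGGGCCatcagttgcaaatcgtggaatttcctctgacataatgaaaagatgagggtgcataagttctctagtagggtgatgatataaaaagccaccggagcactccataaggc
CXCL9 lies at chr4:76007510-76007759, CXCL10 at chr4:76023498-76023747 and CXCL11 at chr4:76036071-76036320, all on the minus strand. CCL20 lies at chr2:227813592-227813841 and CXCL8 at chr4:73740319-73740568, both on the plus strand. The interferon core began 171 bases before the start in CXCL9 and 221 bases before it in CXCL10. A kB match began 177 and 122 bases before the start in CXCL10, that at 122 on both strands, 76 bases before it in CXCL11, 207, 80 and 21 bases before it in CCL20 and 117 bases before it in CXCL8. No match was found to the interferon core in the window of CXCL11, CCL20 or CXCL8, or to the kB motif in that of CXCL9. The promoter of CCL19, which like CXCL8 differed between Burkitt lines, is not shown and held no match to either motif. Of the 53 member genes, 37 had a promoter of 300 bases in the table, which includes 50 bases after the start. The interferon core was present in 4 of these 37 (10.8%), against 3.02% of 35116 promoters, and the kB motif in 15 (40.5%), against 22.6%. A match describes letters only. Binding sites whose letters differ from these motifs were not searched for, so no match does not mean no site.

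The values are log2 expression values made by the authors with robust multi-array averaging (RMA), and a difference is the treated minus the untreated value on that scale, so that 1 is a 2-fold change. A probe set's brightness depends on its probes, so levels were not compared between genes. Over all arrays and probe sets the 25th, 50th and 75th percentiles were 5.68, 6.82 and 8.01, and 17 of the 70 members had all 12 group means below the 25th percentile. Mean untreated readings ran from 4.08 on a CXCL11 probe set to 10.48 on a CXCR4 probe set. All 6 measured B-cell markers (CD79A, CD79B, CD22, MS4A1, PAX5 and CD74) were above the 75th percentile in at least 1 untreated line. After treatment 5 of them were lower (limma over the 6 lines, adjusted p under 0.05), beside 18.3% of all genes. The median difference of the list was -2.07, beside 0.12 over all genes, by the brightest probe set of each gene. For RNA from whole cultures, fewer cells expressing a gene and less RNA per cell cannot be told apart. The middle spread (interquartile range) of array values was narrower in the treated SU-DHL4 arrays and in treated SU-DHL6 array 2, at 1.96 to 2.03, against 2.23 to 2.40 in the other treated arrays and 2.31 to 2.59 in untreated arrays.

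Over the 6 lines, a minority of chemokine and receptor probe sets passed the test, and 13 of the 14 calls were upward. Of the 70 members, 13 were higher, 1 was lower and 56 did not pass (limma on the 12 line and treatment means with line as a block, adjusted p under 0.05 over all probe sets). Of all 22215 probe sets, 15.6% were higher and 16.7% lower, so the share of members called in either direction, 20%, was below the 32.4% of the array. For rises alone, 13 of 70 was close to the array's share. All 12 group means lay below the array's median in 40 of the 70 members. Whether low levels had a part in the direction of the calls was not tested. The counts in each direction also moved with normalization, as given below. The members' median difference was 0.23, beside 0.10 over all probe sets. Among ligands, CXCL10, CCL20, CCL5, CCL22, CCL4, CCL18 and CCL25 rose, 7 of 42 probe sets. Among receptors, CCR7, CX3CR1, CCR4, ACKR5, CCR8 and CCR1 rose and CXCR5 fell, 7 of 28 probe sets. The calls of CCR7, CXCL10, CCR4 and CX3CR1 held without any 1 line, after 3 further normalizations, and without the 3 narrow arrays together with untreated SU-DHL4. Each of the other 10 calls was lost on leaving out at least 1 line, and those of CCL18, CCL20, CCL22, CXCR5, CCR1 and ACKR5 also without the narrow arrays and untreated SU-DHL4, with limma adjusted p of 0.0585 to 0.112.

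**Figure D1:**
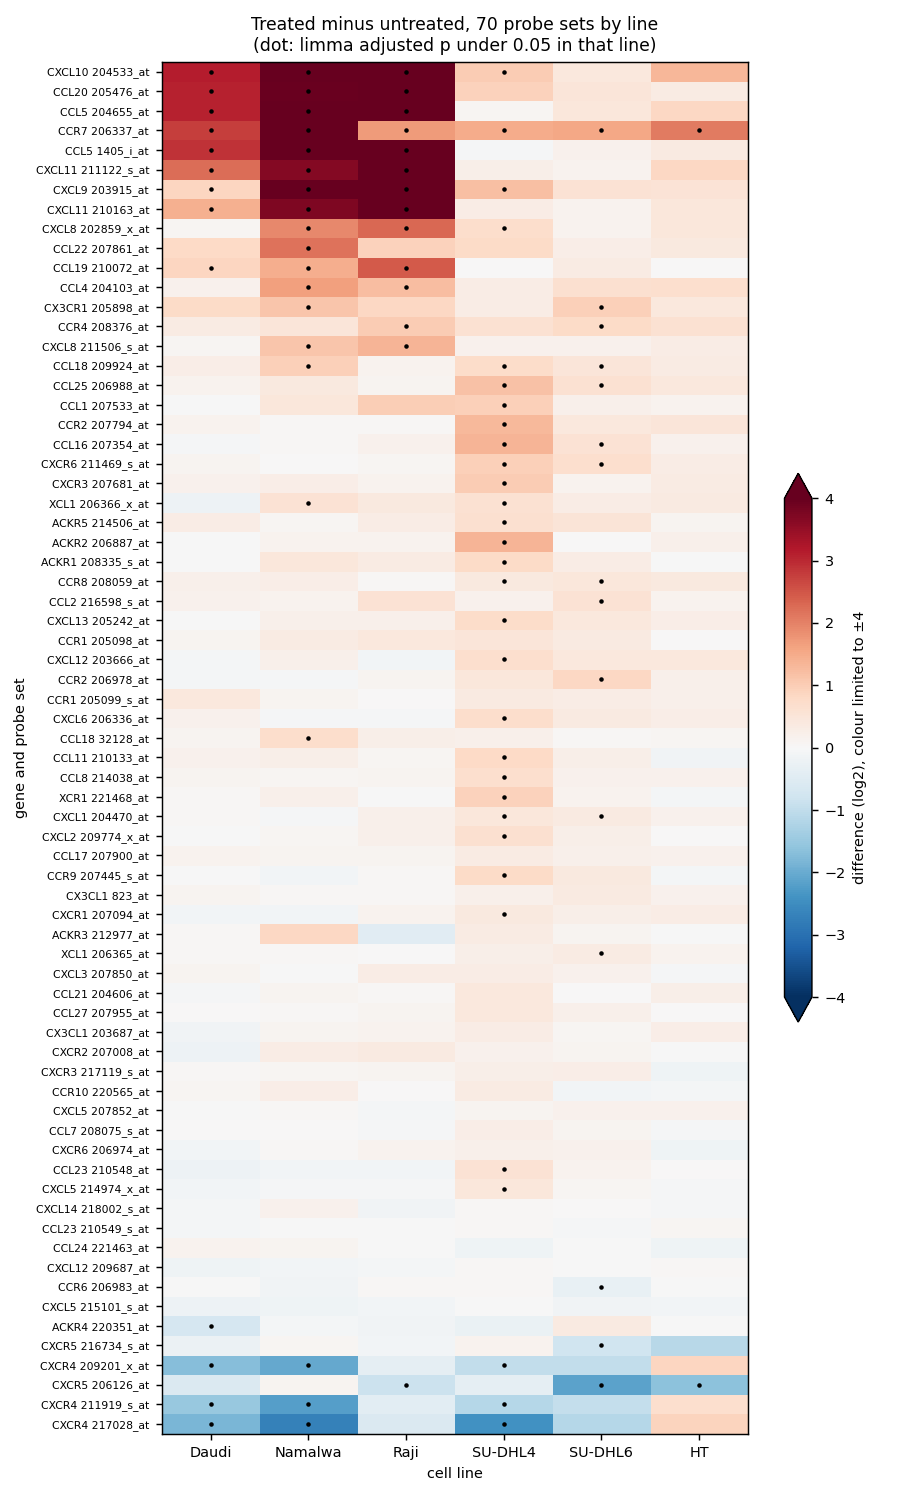
Treated minus untreated log2 difference of all 70 probe sets (vertical axis, ordered by their mean over the lines) in each of the 6 lines (horizontal axis), as colour limited to ±4, with a dot where limma's adjusted p in that line was under 0.05. CCR7 has a dot in every line, while CCL5, CCL20, CXCL11 and CXCL9 are darkest in Namalwa and Raji.

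CCR7, the receptor that directs lymphocytes to the T-cell zone of lymph nodes, was the member whose rise passed the test within every line. The treated arrays read 8.30 and 8.90 in Daudi, 11.77 and 11.94 in Namalwa and 12.76 and 12.58 in Raji, against 5.80 and 5.84, 7.41 and 7.27, and 11.26 and 10.66 in the same lines untreated. In DLBCL lines the treated arrays read 7.27 and 7.30 in SU-DHL4, 7.75 and 7.60 in SU-DHL6 and 7.51 in HT, against 6.03 and 5.59, 5.88 and 6.37, and 5.44 untreated. No treated array of a line overlapped its untreated arrays, but untreated Raji already lay above treated Daudi and every treated DLBCL array. The share of all probe sets without overlap within lines was not counted, and single arrays, as in HT, cannot overlap. The mean difference was 2.35 ± 1.16 (SD over 6 lines), a 5.10-fold change (limma adjusted p = 0.0044). It was largest in Namalwa, at 4.52, and between 1.47 and 2.78 in the other 5 lines. The difference among the lines passed limma's F test against the spread of duplicate arrays (adjusted p = 4.8e-04).

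CCL19 and CCL21 are the ligands of CCR7. CCL19 read 6.42 and 6.22 in treated Daudi, 6.95 and 6.59 in treated Namalwa and 7.81 and 7.97 in treated Raji, against 5.39 and 5.52, 5.30 and 5.36, and 5.50 and 5.35 untreated. It rose in these 3 Burkitt lines by 0.86, 1.44 and 2.46 (limma adjusted p = 8.6e-04, 1.6e-05 and 2.6e-07). The differences in SU-DHL4, SU-DHL6 and HT were 0.01, 0.33 and 0.02, none called, and the mean over lines, 0.85 ± 0.96, did not pass (limma adjusted p = 0.079). CCL21 averaged 0.13 ± 0.18 over lines, with limma adjusted p = 0.26, and no line passed. The receptor thus moved in all 6 lines and CCL19 passed in 3.

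CXCL9, CXCL10 and CXCL11 are ligands of CXCR3 that are induced by interferon, and their genes lie together on chromosome 4, with 1 protein-coding gene between CXCL9 and CXCL10 and 0 between CXCL10 and CXCL11. CXCL10 had the largest mean difference of any member, 2.46 ± 1.78 or 5.51-fold (limma adjusted p = 0.018). Its treated arrays read 9.96 and 9.54 in Daudi, 11.84 and 11.69 in Namalwa and 12.09 and 12.48 in Raji, against 6.57 and 6.64, 7.27 and 6.97, and 8.53 and 7.61 untreated. In SU-DHL4, SU-DHL6 and HT the treated arrays read 7.30 and 7.59, 6.94 and 7.28, and 7.31, against 6.15 and 6.70, 6.50 and 6.87, and 5.98 untreated. Treated and untreated arrays did not overlap within any line, but the gaps were wide in the Burkitt lines and narrow in SU-DHL4 and SU-DHL6. As for CCR7, no share over all probe sets was counted for this. CXCL10 rose in Daudi, Namalwa and Raji by 3.14, 4.65 and 4.21 and in SU-DHL4 by 1.02 (limma adjusted p = 3.3e-05, 6e-07, 1.7e-06 and 0.0085). In SU-DHL6 and HT the differences were 0.42 and 1.33, with limma adjusted p of 0.28 and 0.090.

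CXCL11 was read by 2 probe sets. On the brighter the treated arrays read 6.63 and 6.10 in Daudi, 7.90 and 7.65 in Namalwa and 10.13 and 10.71 in Raji, while the 11 untreated arrays of all lines lay between 4.08 and 4.25. Every treated array, from 4.31 to 10.71, lay above every untreated one, which made it 1 of 70 members without overlap, where 5.45% of all probe sets had none. On this probe set the differences were 2.24, 3.66 and 6.23 in Daudi, Namalwa and Raji, all called, and 0.24, 0.13 and 0.82 in SU-DHL4, SU-DHL6 and HT, none called. The dimmer probe set gave 1.42, 3.74 and 5.99 in the Burkitt lines, also all called, and 0.13 to 0.46 in the DLBCL lines. With such unequal lines, the means of 2.22 ± 2.38 and 2.01 ± 2.37 did not pass over lines (limma adjusted p = 0.065 and 0.086).

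CXCL9 separated the Burkitt lines from each other. Treated arrays read 7.69 and 7.64 in Daudi, 11.54 and 11.70 in Namalwa and 11.94 and 12.34 in Raji, against 6.61 and 6.98, 6.69 and 6.84, and 7.45 and 6.75 untreated. It rose by 4.85 in Namalwa and 5.04 in Raji, by 0.87 in Daudi and by 1.20 in SU-DHL4 (limma adjusted p = 4.5e-08, 2.3e-08, 0.014 and 5.7e-04). SU-DHL6 and HT differed by 0.58 and 0.54 without passing, and the mean over lines was 2.18 ± 2.16 (limma adjusted p = 0.052). Their receptor CXCR3, which guides activated T cells, rose by 1.02 in SU-DHL4 on the dimmer of its 2 probe sets (limma adjusted p = 1e-05) and differed by 0.14 to 0.34 in the other 5 lines, none called. On the brighter CXCR3 probe set the difference in SU-DHL4 was 0.23 and the mean over lines 0.10 ± 0.15, neither called, with limma adjusted p of 0.15 and 0.37. CXCL9, CXCL10 and CXCL11 were therefore all called in the 3 Burkitt lines.

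**Figure D2:**
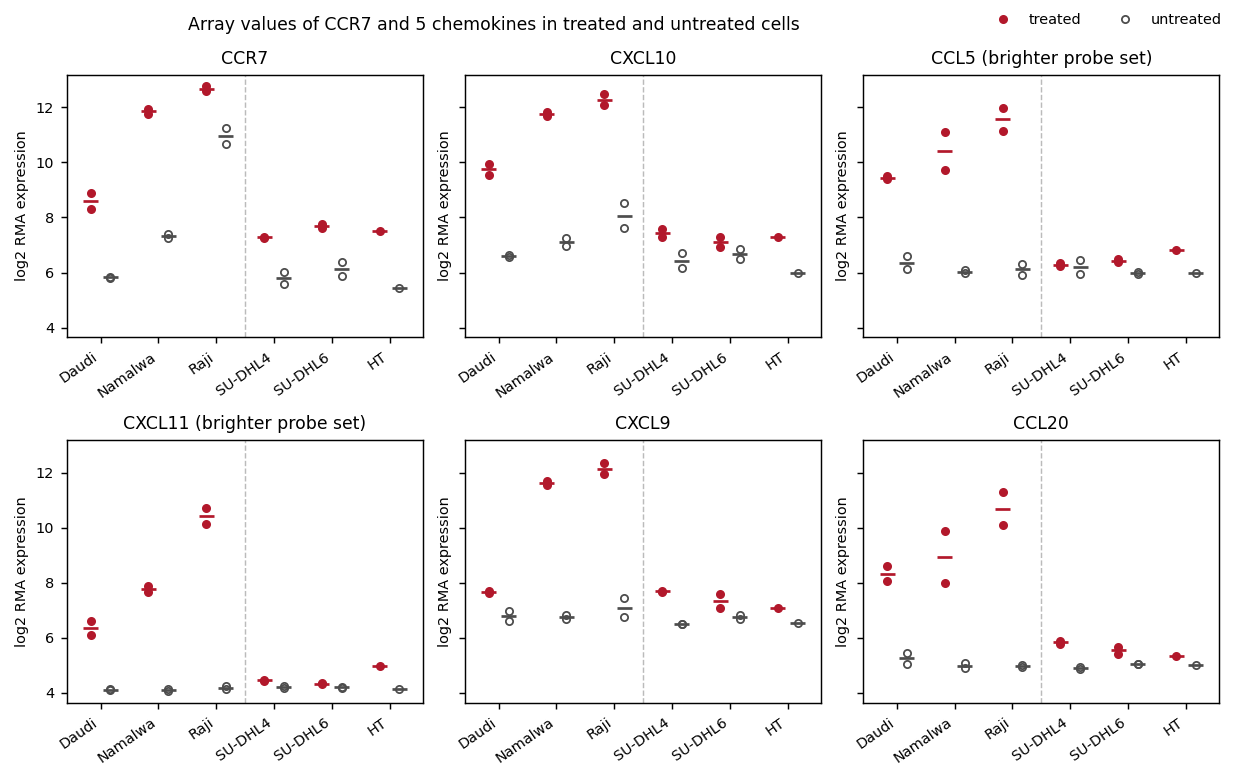
Log2 RMA values (vertical axis) of CCR7, CXCL10, CCL5, CXCL11, CXCL9 and CCL20 in the 6 lines (horizontal axis), with filled points for treated arrays, open points for untreated arrays and a bar for their mean; a dashed line parts Burkitt from DLBCL lines. Treated CXCL11 reaches 10.71 in Raji, while its untreated arrays stay at or below 4.25.

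CCL5 (RANTES), which attracts T cells and monocytes, had similar values in all untreated lines. On the brighter of its 2 probe sets the treated arrays read 9.49 and 9.39 in Daudi, 9.71 and 11.11 in Namalwa and 11.99 and 11.15 in Raji, and the 11 untreated arrays lay between 5.93 and 6.59. Differences of 3.08, 4.38 and 5.44 passed in these lines, whereas 0.09, 0.44 and 0.83 in SU-DHL4, SU-DHL6 and HT did not. The mean was 2.38 ± 2.25 (limma adjusted p = 0.045), and that of the dimmer probe set was 2.22 ± 2.39 (limma adjusted p = 0.066). The call of the brighter probe set was lost without Daudi, Namalwa, Raji, SU-DHL6 or HT, with limma adjusted p up to 0.107, and under each of the other 3 normalizations, with limma adjusted p from 0.063 to 0.070. CCL4 (MIP-1β), which binds a receptor that CCL5 also uses, rose over lines by 0.77 ± 0.56 (limma adjusted p = 0.022). Within lines CCL4 rose in Namalwa, by 1.63, and in Raji, by 1.22. Its untreated level was already highest in Namalwa, where the arrays read 11.87 and 11.45 treated and 9.96 and 10.10 untreated. Without Raji or SU-DHL6 the call of CCL4 was lost, with limma adjusted p up to 0.058, and under quantile normalization, with 0.0536.

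CCL20, the ligand of CCR6 and a target of NF-kB, passed in the same 3 lines as CCL5. Treated arrays read 8.60 and 8.07 in Daudi, 8.0 and 9.88 in Namalwa and 11.29 and 10.09 in Raji, and the 11 untreated arrays of all lines lay between 4.88 and 5.47. CCL20 rose by 3.08, 3.95 and 5.72 in these 3 lines, and differed by 0.93, 0.49 and 0.33 in SU-DHL4, SU-DHL6 and HT without passing. The mean was 2.41 ± 2.19 (limma adjusted p = 0.039), and the call was lost without Daudi, Namalwa, Raji or SU-DHL4 and under each other normalization, with limma adjusted p up to 0.0955. CCR6, which guides B cells and helper T cells towards CCL20, averaged -0.07 ± 0.13 over lines (limma adjusted p = 0.50), and the 1 line in which it passed was SU-DHL6, at -0.30.

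CXCL8 (interleukin-8), a neutrophil chemoattractant, rose in Namalwa and Raji on both of its probe sets. On the brighter the treated arrays read 7.49 and 7.55 in Namalwa and 8.25 and 7.13 in Raji, against 5.50 and 5.67, and 5.33 and 5.48 untreated. In Daudi the treated arrays read 5.88 and 5.84, against 5.79 and 5.77 untreated. The differences were 1.94 in Namalwa, 2.29 in Raji and 0.72 in SU-DHL4, all called, and 0.08 in Daudi, 0.15 in SU-DHL6 and 0.45 in HT, none called. Over lines the mean of 0.94 ± 0.94 did not pass (limma adjusted p = 0.058), nor did that of the dimmer probe set, 0.53 ± 0.55 (limma adjusted p = 0.070).

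CCR4, a receptor of regulatory and type 2 helper T cells, and its ligand CCL22 both rose over lines, as did CX3CR1, the receptor of the membrane-bound chemokine CX3CL1. CCR4 rose by 0.63 ± 0.23 and CX3CR1 by 0.73 ± 0.31, with limma adjusted p of 0.0036 and 0.0045. These rises were small but upward in every line: CCR4 differed by 0.33 to 1.0 and CX3CR1 by 0.28 to 1.11 across lines. Treated arrays of CCR4 had a lowest, median and highest value of 6.80, 7.17 and 7.91, and untreated arrays 6.31, 6.57 and 6.83, so the groups overlapped slightly. Those of CX3CR1 were 5.73, 6.04 and 7.10 treated and 5.05, 5.45 and 5.91 untreated. CCL22 rose by 0.89 ± 0.68 (limma adjusted p = 0.025), and within lines it passed in Namalwa alone, where the arrays read 10.44 and 11.62 treated and 8.90 and 8.78 untreated. Untreated Raji spanned 10.26 to 8.10 for CCL22, a spread wider than its difference there, 0.93. The call of CCL22 was lost without Daudi, Raji or SU-DHL4, with limma adjusted p up to 0.056, and without the narrow arrays and untreated SU-DHL4, with 0.0585.

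Smaller rises over lines were those of CCL18, a T-cell attractant of macrophages and dendritic cells, by 0.48 ± 0.31, and CCL25, which draws cells to the gut, by 0.47 ± 0.39. The scavenging receptor ACKR5 rose by 0.32 ± 0.22, CCR8 by 0.30 ± 0.15 and CCR1, a receptor of inflammatory CC chemokines, by 0.29 ± 0.18. Their limma adjusted p lay between 0.020 and 0.043. CCL25, ACKR5, CCR8 and CCR1 lost their call under each of the 3 other normalizations, and CCL18 under 1 of them, cyclic loess, with limma adjusted p = 0.0615, and on leaving out SU-DHL6.

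CXCR5, the receptor that leads B cells into follicles, was the member that fell over lines. On the dimmer of its 2 probe sets treated arrays read 6.78 and 6.72 in SU-DHL6 and 6.98 in HT, against 8.83 and 8.96, and 8.62 untreated, and 6.93 and 7.36 in Raji, against 7.60 and 8.42 untreated. It fell by 2.14 in SU-DHL6, 1.64 in HT and 0.87 in Raji, and differed by -0.58, 0.12 and -0.36 in Daudi, Namalwa and SU-DHL4 without passing. After treatment the 6 line means lay between 6.69 and 7.14, a narrower range than the 6.57 to 8.89 of untreated cells. The mean was -0.91 ± 0.84 (limma adjusted p = 0.044), and the call was lost without Daudi, Raji, SU-DHL4, SU-DHL6 or HT, with limma adjusted p up to 0.107. The brighter probe set averaged -0.34 ± 0.51 (limma adjusted p = 0.17) and passed in SU-DHL6 with -0.80. The CXCR5 ligand CXCL13 averaged 0.30 ± 0.26 over lines (limma adjusted p = 0.069) and rose in SU-DHL4 by 0.74.

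CXCR4, the receptor that retains cells in marrow and germinal-centre dark zones, was read by 3 probe sets. On the brightest, treated arrays read 10.02 and 9.98 in Daudi, 9.31 and 9.49 in Namalwa and 8.92 and 8.85 in SU-DHL4, against 11.48 and 11.53, 11.62 and 11.57, and 9.94 and 10.08 untreated. CXCR4 fell in these 3 lines on all 3 probe sets, with differences of -1.82 to -1.5 in Daudi, -2.72 to -2.06 in Namalwa and -2.44 to -0.98 in SU-DHL4. The arrays overlapped in SU-DHL6, with 10.54 and 9.19 treated against 10.34 and 11.28 untreated, and in Raji, with 10.20 and 10.67 against 10.50 and 11.24. HT had the lowest untreated value and read 8.77 treated against 8.11 untreated, a difference of 0.67 from 1 array each. Over lines the 3 probe sets averaged -0.87, -0.92 and -1.30 and did not pass (limma adjusted p = 0.090, 0.066 and 0.060). Without HT, the line with a positive difference, they averaged -1.21, -1.24 and -1.74 and passed, with limma adjusted p of 0.015, 0.013 and 0.011. On leaving out Daudi, Namalwa, Raji, SU-DHL4 or SU-DHL6 instead, none passed, with limma adjusted p up to 0.196, 0.140 and 0.149. Under the other normalizations none passed either, with limma adjusted p up to 0.419, 0.322 and 0.152. CXCL12, the ligand of CXCR4, averaged 0.25 ± 0.32 on its brighter and -0.05 ± 0.09 on its dimmer probe set over lines, neither called, and rose by 0.67 in SU-DHL4 on the brighter.

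**Figure D3:**
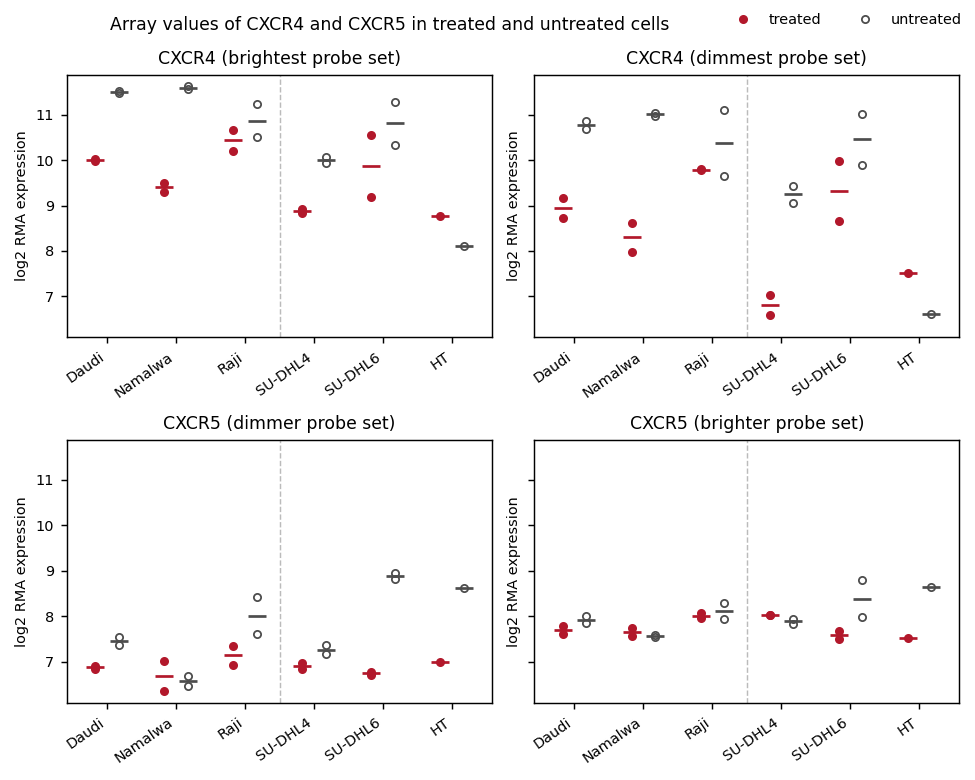
Log2 RMA values (vertical axis) of 2 probe sets each of CXCR4 and CXCR5 in the 6 lines (horizontal axis), with filled points for treated arrays, open points for untreated arrays and a bar for their mean; a dashed line parts Burkitt from DLBCL lines. CXCR4 lies lower in treated Daudi, Namalwa and SU-DHL4 and higher in treated HT, and CXCR5 on its dimmer probe set falls most in SU-DHL6 and HT.

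The lines differed in how many members passed. In Daudi 13 of 70 were called, in Namalwa 20, in Raji 14, in SU-DHL4 31, in SU-DHL6 15 and in HT 2, beside 18.1%, 20.7%, 12.9%, 56.6%, 28.3% and 3.90% of all probe sets (limma, adjusted p under 0.05 in that line). SU-DHL4, the line with narrow treated arrays, thus had the most called members, but also the most called probe sets of all kinds. Members that rose at least 2-fold and passed came to 7 in Daudi, 14 in Namalwa, 13 in Raji, 8 in SU-DHL4, 1 in SU-DHL6 and 1 in HT, beside 4.37%, 4.58%, 2.84%, 6.73%, 2.57% and 1.38% of all probe sets. CCR7 was the member counted in SU-DHL6 and in HT. In SU-DHL4 these 8 included CCL16, a liver-expressed chemokine, at 1.35, CCR2, the main monocyte chemokine receptor, at 1.30 on its dimmer probe set, CCL25 at 1.19 and ACKR2, a scavenger of inflammatory chemokines, at 1.35. The brighter CCR2 probe set differed by 0.44 in SU-DHL4 without passing (limma adjusted p = 0.094), and passed in SU-DHL6, at 0.81. The treated values of these 4 in SU-DHL4 remained between 5.93 and 7.57, against 4.84 to 6.36 untreated, that is below the array's 75th percentile. All 6 probe sets of CCR7, CCL5, CXCL10 and CXCL11 passed in Daudi, Namalwa and Raji, where 7, 14 and 8 of the other 64 did. In SU-DHL4, SU-DHL6 and HT, 2, 1 and 1 of the 6 passed, and 29, 14 and 1 of the 64. The 4 genes were set apart with earlier results of these data known, so their contrast with the 64 is a description and not a test.

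The differences of 20 members varied among the 6 lines by limma's F test, where 17.9% of all probe sets did. They held all 6 probe sets of the 4 genes and 14 of the other 64. The range between the lines had a median of 5.37 over the 6 and 0.77 over the 64, beside 0.81 over all probe sets. This contrast too follows from how the 4 genes were chosen. Wide ranges were not particular to them: among the 64, CCL20 differed by 0.33 to 5.72 and CXCL9 by 0.54 to 5.04 across lines. Among the Burkitt lines, Namalwa and Raji together differed from Daudi in 5 members, all more strongly raised in Namalwa and Raji, where 0.963% of all probe sets did so and 2.12% differed either way. They were CXCL9 by 4.08, CXCL11 by 3.44 and 2.70 on its dimmer and brighter probe sets, CXCL8 by 2.03 on its brighter probe set and CCL19 by 1.09. CCL5 differed by 1.83 and CXCL10 by 1.28 without passing (limma adjusted p = 0.054 and 0.083).

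Burkitt minus DLBCL was tested on the 6 line differences. As array data of the treated Burkitt lines had been published earlier, an array batch, if there was one, and this contrast cannot be told apart. CCL5 rose by 4.30 on average in Burkitt lines and differed by 0.45 on average in DLBCL lines on its brighter probe set, and the other large differences were those of CCL20 (4.25 and 0.58), CXCL11 (4.04 and 0.40 on its brighter probe set), CXCL10 (4.0 and 0.92) and CXCL9 (3.59 and 0.77). CCR7 stood closer to even, at 3.00 and 1.70. With 3 lines a side, 0 of 70 members and 0.0045% of all probe sets passed (limma, smallest adjusted p of a member 0.36), while 13 members (18.6%) had an unadjusted p under 0.05, beside 11.9% of all. When the 22 arrays were the units, 18 members passed, beside 11.8% of all, but arrays of 1 line are not independent lines. Every Burkitt difference lay above every DLBCL difference in 9 members, beside 5.85% of all, and below in 16, beside 16.8%. The 9 were CCL5, CXCL11 (2 probe sets each), CXCL10, CCL20, CCL19, CCL22 and CCL24. In untreated cells 0 of 70 members differed between Burkitt and DLBCL lines, beside 0.0090% of all probe sets (limma), and 1 had an unadjusted p under 0.05. With 22 arrays as units 8 did, beside 7.47% of all, among them CCR7, which was 2.25 higher in Burkitt lines and whose untreated mean was 10.96 in Raji, 7.34 in Namalwa and 5.82 in Daudi, against 5.44 to 6.13 in DLBCL lines.

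**Figure D4:**
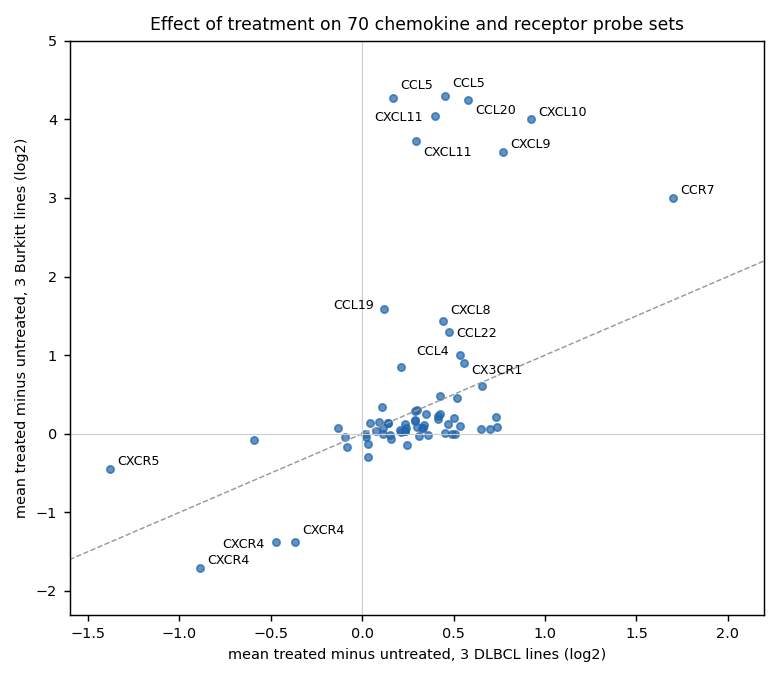
Mean treated minus untreated log2 difference of the 70 probe sets in the 3 Burkitt lines (vertical axis) against that in the 3 DLBCL lines (horizontal axis); the dashed line marks equal differences. CCL5, CCL20, CXCL11, CXCL10 and CXCL9 lie high above the line, CCR7 less so, and CXCR4 and CXCR5 lie in the lower left.

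The other 36 probe sets, of 30 genes, were those left after members that passed over lines or by 2-fold in a line had been named. Small differences among them therefore follow from that choice. Their differences over lines lay between -0.13 and 0.45, with a median of 0.14, and none differed by 2-fold or more in a line. At least 1 line passed for 50 of all 70 members, beside 70.5% of all probe sets. Among the 36 left it did for 19, and 14 of them passed in SU-DHL4. Of the 15 genes with more than 1 probe set, 3 (CCL23, CXCL12 and CXCL5) had probe sets of opposite sign over lines, all of them small. A call on 1 probe set but not on all was seen in 4 (CCL18, CCL5, CCR1 and CXCR5). In all 6 lines the same direction was seen in 30 members that were higher and 1 that was lower, CXCL5 on the brightest of its 3 probe sets, beside 22.9% and 15.8% of all probe sets. Among the 37 genes with a promoter, the 7 whose largest difference in a line was 2 or more had 0 to 4 CpG in 300 bases (median 3.0), and the other 30 had 1 to 39 (median 4.5), where all promoters had a median of 14. The CpG-rich promoters were those of CXCL12 with 39, CXCL14 with 31, CXCR4 with 27, CXCL3 with 24 and CXCL1 and CXCL2 with 22 each. DNA methylation was not measured in the files used here.

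Genes around the chemokine system were followed in lists, by the brightest probe set of each gene, beside 18.7% of all genes higher and 18.3% lower with a median of 0.12. Of 38 measured inducers of inflammatory chemokines (interferon, NF-kB and AP-1 factors and cytokines), 11 rose, 6 fell and 21 did not pass, with a median of 0.26. IRF7, an interferon regulatory factor, rose by 2.35 ± 1.30, JUN, an AP-1 subunit, by 2.29 ± 0.67 and STAT3, a cytokine-activated transcription factor, by 1.91 ± 0.70, whereas LTB, the lymphotoxin beta chain, fell by 1.94 ± 1.05 (SD over 6 lines). IRF7 differed by 3.63 and 4.36 in Namalwa and Raji and by 1.38 to 1.74 in the other 4 lines. Of 57 measured genes of receptor signalling, 8 rose, 14 fell and 35 did not pass, with a median of -0.11. DOCK2, which activates Rac downstream of chemokine receptors in lymphocytes, fell by 2.24 ± 0.33, and the kinase PAK2 and the G-protein subunit GNA13 by 1.64 ± 0.48 and 1.61 ± 1.24, while the kinase PRKCB rose by 1.38 ± 1.28. The counts of both lists moved with the lines used. Without 1 line in turn, 7 to 9 inducers were higher and 3 to 6 lower, with 7 higher without Namalwa or Raji and 3 lower without SU-DHL4, SU-DHL6 or HT. Of the signalling genes, 3 to 6 were then higher and 7 to 11 lower, with 3 higher without Daudi or Namalwa and 4 without SU-DHL6 or HT, and with 7 lower without Namalwa or SU-DHL6, 8 without SU-DHL4 and 9 without HT. GNA13 lost its call without SU-DHL4 or HT, and PRKCB kept it without Raji alone, with limma adjusted p up to 0.053 and 0.097, while IRF7, JUN, STAT3, LTB, DOCK2 and PAK2 kept theirs without any 1 line.

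Of 9 RGS proteins, which shut off G-protein signalling, 2 rose, 2 fell and 5 did not pass, with a median of -0.15. RGS13, a germinal-centre B-cell regulator of CXCR4 and CXCR5 signalling, fell by 4.02 ± 1.68 and RGS19 by 1.05 ± 0.43, while RGS2 rose by 1.81 ± 1.32 and RGS4 by 0.52 ± 0.35. Of 13 genes for chemokine processing and retention, 4 rose, 1 fell and 8 did not pass, with a median of 0.27. SDC4, a heparan sulfate proteoglycan, rose by 1.68 ± 1.14, TPST1, which sulfates receptor tyrosines, by 0.74 ± 0.32 and the heparanase HPSE by 0.73 ± 0.69, and the shedding protease ADAM17 fell by 0.58 ± 0.50. Of 11 measured other chemotactic and adhesion receptors of B cells, 0 rose, 2 fell and 9 did not pass, with a median of -0.01. Those that fell were the integrin chains ITGA4, by 1.43 ± 0.89, and ITGAL, by 1.11 ± 1.01. Calls were lost for HPSE without any 1 line but SU-DHL6, for ADAM17 without any 1 line but Namalwa, for ITGAL without SU-DHL4, SU-DHL6 or HT and for RGS4 without SU-DHL6, with limma adjusted p up to 0.107, 0.093, 0.099 and 0.066, and the other named genes of these lists kept theirs. The 4 higher processing genes were 2 without Daudi, Namalwa, Raji or HT.

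Some markers of other cell types were higher after treatment. T-cell markers were higher in 4 of 7, beside 18.7% of all genes, by 0.37 to 0.45 with a list median of 0.37, with list means of 7.24 to 7.96 in treated and 7.08 to 7.24 in untreated arrays. This count was 1 without SU-DHL6 and 2 without HT. Monocyte markers were higher in 1 of 7, CSF1R by 1.17, a call kept without any 1 line, with list means of 5.38 to 5.70 treated and 5.13 to 5.56 untreated. NK-cell markers passed in 0 of 5 and stromal or endothelial markers in 0 of 6. Whether they had a part in any difference above was not tested.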

How the data were processed

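RNA of 6 lymphoma lines was measured on 22 HG-U133A arrays in 12 groups of 2 arrays, or 1 for HT. The deposited log2 expression values were made by the authors with robust multi-array averaging (RMA), per the design text, and the submitters' processing notes name R 2.10.1 and RMA. RMA quantile-normalizes all arrays together, which can turn a shift of many genes into opposite shifts of others. The authors' deposited table also holds p-values and log2 differences. Its differences equal treated minus untreated array means, to within 3.5e-14, although its heading names normal B cells first, of which none are among the samples used here. At an adjusted p-value under 0.05, the authors' deposited table had 42 members higher and 5 lower, from 22 arrays with line as a term.

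The 68 control probe sets were left out and no filter on dim probe sets was used. Of 22215 probe sets, 19065 had 1 gene symbol, 1043 several and 2107 none, and 4 probe sets with several symbols that include a member were not used. CCRL2 did not match the rule and is in the processing list.

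Two-sided tests with Benjamini-Hochberg adjustment over all probe sets (threshold 0.05) were made by lmFit and eBayes of limma 3.58.1, under R 4.3.3, and checked on simulated data. Over lines, the 12 group means were fitted with line as a block. Within lines, 22 arrays were fitted with 12 group means, and HT was assumed to vary like the others. The number of arrays limits the precision. Replicate numbers did not pair samples: correlations of deviations were -0.14 to 0.03 over 5 lines. Named with values were the 4 genes, members past the threshold over lines or past it with a difference of 1 or more in a line, CXCR4, CXCR5, CCR6, CXCL12, CXCL13, CCL19 and CCL21, the lowest and highest untreated members, and up to 4 genes per list, the largest past the threshold. IRF7's values by line and CXCL5 were added after the values were seen. The members and lists were chosen with earlier results of these data known. Alternatives were other normalizations, leaving out dim probe sets, the brightest probe set per gene, arrays as units, a replicate block, each tumour type alone, and leaving out each line, each array, or the arrays of narrow spread.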

Additional observations from a re-analysis of the deposited data

Results flagged for a closer look

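In 4 of the 34 probe sets named with values, 1 line stood far from the other 5 in its treated minus untreated difference (log2). Chance passes this test in about 1 of 20 groups that were not selected. That rate does not apply here, because CCR2, CXCR3 and ACKR2 were named for their 2-fold rise in SU-DHL4, and CCL22 partly for its rise in Namalwa. The share over all probe sets was not counted. CCL22 differed by 2.19 in Namalwa. CCR2 on its dimmer probe set differed by 1.30, CXCR3 on its dimmer probe set by 1.02 and ACKR2 by 1.35, each in SU-DHL4, where the brighter probe sets of CCR2 and CXCR3 differed by 0.44 and 0.23 without passing (limma). SU-DHL4 is the line whose treated arrays had a narrower spread of values; the part of that spread was not tested. The effect in Namalwa and Raji exceeded that in Daudi, by limma's test of the difference itself, for CXCL9 by 4.08, CXCL11 by 3.44 on its dimmer and 2.70 on its brighter probe set, CXCL8 by 2.03 on its brighter probe set and CCL19 by 1.09.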

How the results depend on the processing

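Members higher over the lines numbered 13, and members lower numbered 1. With each array centred on its median these were 7 and 2, with quantile normalization 6 and 2, with cyclic loess 6 and 2, with 22 arrays and line as an additive term 42 and 5, in Burkitt lines alone 5 and 0, in DLBCL lines alone 2 and 0, and without SU-DHL4 and treated SU-DHL6 array 2 they were 8 and 0. Leaving out dim probe sets gave 3 lower, of 23 members tested, and the brightest probe set per gene gave 0 lower. Centring moved the median of all probe sets from 0.10 to 0.01 and the share of calls that were higher from 48.3% to 31.8%. CXCL5 on its brightest probe set was called lower under the 3 other normalizations. That probe set read 4.22 to 4.45 treated and 4.32 to 4.66 untreated, below the 10th percentile of all values, 4.78. The 3 CXCL5 probe sets averaged from -0.12 to 0.07 over lines, with opposite signs. Leaving out a line or an array gave 6 to 18 higher and 0 to 3 lower. It gave 8 to 14 in Daudi, 15 to 21 in Namalwa, 12 to 14 in Raji, 21 to 33 in SU-DHL4, 3 to 23 in SU-DHL6 and 2 to 4 in HT, 12 to 28 by the F test, 5 to 8 for Namalwa and Raji minus Daudi, 0 to 2 for Burkitt minus DLBCL effects and 0 to 0 untreated. Without dim probe sets the counts were 7 in Daudi, 11 in Namalwa, 7 in Raji, 14 in SU-DHL4, 6 in SU-DHL6, 8 by the F test and 2 for Namalwa and Raji minus Daudi, with fewer members tested. SU-DHL6 had 7 with centring, 7 with quantile normalization and 6 with cyclic loess. With 22 arrays as units, 18 effects and 8 untreated levels differed between Burkitt and DLBCL lines. The signs of CCL21 under cyclic loess (-0.0376), of CXCL12's brighter probe set in Burkitt lines alone (-0.0061) and of its dimmer probe set in DLBCL lines alone (0.0306) were reversed. Counts of list genes moved by over 1.5 times too: over 14 settings signalling genes ran from 1 to 16 higher and 3 to 20 lower, inducers from 3 to 19 and 2 to 11, processing genes from 1 to 7 and 0 to 1, RGS proteins from 0 to 2 and 1 to 3, other receptors from 0 to 1 and 1 to 3, and T-cell markers from 0 to 5 higher. Up to 4 called genes of each list, those with the largest differences, were followed, including B-cell and T-cell markers given no values of their own above. Of these 27 list genes and markers, 17 kept their call without any 1 line, under 3 normalizations and without the narrow arrays. Among the 17 were the B-cell markers CD79A, CD79B, PAX5 and MS4A1. Where not named, the cause was not tested.

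With replicate numbers as a block, members called were 11 in Daudi, 20 in Namalwa, 14 in Raji, 28 in SU-DHL4, 12 in SU-DHL6 and 2 in HT, 15 by the F test and 4 for Namalwa and Raji minus Daudi, so this pairing moved no count by over 1.5 times.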
